A study of Mus musculus with 41 samples.

Results

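The Trim12 and Trim30 genes of mouse chromosome 7 were followed in brain RNA of SAMP8 and SAMR1 mice. The set holds 6 genes, Trim12a, Trim12c, Trim30a, Trim30b, Trim30d and Trim34a, of the 55359 in the count table. The set was chosen by measured values: Trim12a had been seen in SAMP8 and was nearly absent in SAMR1 at 2.5 months of age, and the other 5 lie beside it in the same gene cluster. The table has 11 genes of that cluster, and the 5 outside the set (Trim5, Trim6, Trim30c, Trim34b and the pseudogene Trim30e-ps1) are given only where a result turns on them. SAMP8 (senescence-accelerated mouse prone 8) is an inbred strain that ages early, and SAMR1 (senescence-accelerated mouse resistant 1) is the related strain used as its control. All animals were males that had received no drug, and total RNA of cortex or hippocampus was sequenced from 28 mice at 2.5, 6 or 9 months, which gave 41 libraries. Both regions came from one animal in 13 mice. Mice were counted by their number within each strain and age. SAMP8 number 38 occurs at 2.5 and 6 months, and SAMR1 numbers 5, 11 and 13 at 2.5 and 9 months. Each was taken as a separate mouse at each age. There were 3 cortex and 3 hippocampus libraries of SAMP8 at 2.5 months, 4 and 3 at 6 months, and 4 and 4 at 9 months. For SAMR1 there were 4 and 4, 3 and 4, and 3 and 2. Each strain is 1 inbred line, so any allele fixed in it is shared by all of its animals.

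Trim proteins carry a RING domain, which passes ubiquitin to other proteins, a B-box and a coiled coil, and many end in a B30.2 domain that binds a target. Members of the family restrict retroviruses and tune signals of innate immunity, and several are induced by interferon. In the mouse the relatives of human TRIM5 are expanded by tandem duplication into the Trim5, Trim12 and Trim30 genes, so near copies lie side by side. In brain without infection, interferon-induced genes of this kind are expressed at low levels.

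On GRCm38 the cluster spans chr7:104218793-104535361, all 6 genes being protein coding in GENCODE M21. Trim34a lies on the plus strand at chr7:104244457-104262234. The other 5 lie on the minus strand, Trim12a at chr7:104299894-104315466, Trim12c at chr7:104338754-104353362, Trim30b at chr7:104355382-104369884, Trim30a at chr7:104409025-104465193 and Trim30d at chr7:104470014-104507849. Trim34b, on the plus strand at chr7:104329471-104336909, sits between Trim12a and Trim12c. The longest coding sequence of Trim12a has 891 bases against 1491 for Trim12c, and the aligned 891 bases are 96.4% identical. Their longest identical stretch is 118 bases. Trim12a was 97.1% identical to Trim5 over the same length, Trim30a and Trim30d were 90.5% identical, and Trim34a and Trim34b 98.3%. The 90 coding bases in which Trim12a and Trim12c differ most show what tells the copies of the reference apart (GENCODE M21, coding bases 125 to 214, 5′ to 3′, with the 8 differing bases in capitals). The sequences of SAMP8 and SAMR1 were not determined here.
Trim12a: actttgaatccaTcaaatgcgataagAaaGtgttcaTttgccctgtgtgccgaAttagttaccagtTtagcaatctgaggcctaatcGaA
Trim12c: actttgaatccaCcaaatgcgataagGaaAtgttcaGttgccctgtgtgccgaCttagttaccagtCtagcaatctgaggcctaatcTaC

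Reads that fit more than 1 gene were therefore possible. Of all distinct 75-base stretches of the annotated transcripts, 5.25% of those of Trim12a, 16.9% of Trim12c, 4.98% of Trim30a, 5.40% of Trim30d and 0.0780% of Trim30b also occurred in a transcript of another gene. For Trim34a the share was 29.5%, all with Trim34b. At 50 bases the shares were 10.4%, 33.04%, 5.98%, 7.49%, 0.550% and 39.8% in the same order of genes. The gene with which Trim12a shared most was Trim5 (2.98% of its 75-base stretches). The treatment of reads with several matches is not given in the sources used here. The values of Trim12a, Trim12c, Trim34a, Trim30a and Trim30d are therefore uncertain by their shared part. Whether either strain lacks a copy or differs from the reference in it was not tested. The processed pseudogene Gm16464 (74 counts) lies within the span of Trim30d on the same strand.

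The starts of the genes resemble each other as well. The promoter windows printed here (RefSeq, GRCm38.p6, 250 bases before to 50 after the annotated start, 5′ to 3′ on the gene's strand) are shown because 5 of the 6 genes hold the same interferon response motif there. The capitals mark the motif, GAAA and GAAA with any 2 bases between them, or TTTC and TTTC likewise on the opposite strand, and both strands were searched. Of all 32851 windows of this length 3.44% hold it, as do 23 of the 55 windows of the interferon-stimulated genes listed for the tests further on. The Trim12a window is chr7:104315446-104315745 (minus strand), the Trim12c window chr7:104353300-104353599 (minus), the Trim30a window chr7:104465144-104465443 (minus), the Trim30d window chr7:104507800-104508099 (minus) and the Trim34a window chr7:104244207-104244506 (plus).
Trim12a: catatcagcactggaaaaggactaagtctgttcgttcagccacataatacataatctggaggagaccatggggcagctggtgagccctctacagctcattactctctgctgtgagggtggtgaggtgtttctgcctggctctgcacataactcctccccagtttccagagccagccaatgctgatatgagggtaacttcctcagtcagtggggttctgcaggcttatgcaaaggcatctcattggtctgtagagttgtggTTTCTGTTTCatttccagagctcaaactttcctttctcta
Trim12c: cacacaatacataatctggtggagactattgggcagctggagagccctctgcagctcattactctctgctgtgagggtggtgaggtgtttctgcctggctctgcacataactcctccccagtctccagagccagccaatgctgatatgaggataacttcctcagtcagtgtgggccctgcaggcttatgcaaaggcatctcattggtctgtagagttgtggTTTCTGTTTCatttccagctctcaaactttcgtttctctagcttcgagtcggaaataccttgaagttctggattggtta
Trim30a: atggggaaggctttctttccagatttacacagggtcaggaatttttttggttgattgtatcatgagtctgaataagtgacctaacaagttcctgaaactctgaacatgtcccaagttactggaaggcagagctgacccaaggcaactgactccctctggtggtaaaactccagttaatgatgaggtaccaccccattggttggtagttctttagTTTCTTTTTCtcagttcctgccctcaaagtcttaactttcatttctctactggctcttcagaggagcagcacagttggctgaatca
Trim30d: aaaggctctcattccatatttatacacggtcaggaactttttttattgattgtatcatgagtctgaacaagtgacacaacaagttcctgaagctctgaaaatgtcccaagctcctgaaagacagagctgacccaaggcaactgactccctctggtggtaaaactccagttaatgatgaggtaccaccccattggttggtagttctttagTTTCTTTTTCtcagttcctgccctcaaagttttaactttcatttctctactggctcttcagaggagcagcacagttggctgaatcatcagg
Trim34a: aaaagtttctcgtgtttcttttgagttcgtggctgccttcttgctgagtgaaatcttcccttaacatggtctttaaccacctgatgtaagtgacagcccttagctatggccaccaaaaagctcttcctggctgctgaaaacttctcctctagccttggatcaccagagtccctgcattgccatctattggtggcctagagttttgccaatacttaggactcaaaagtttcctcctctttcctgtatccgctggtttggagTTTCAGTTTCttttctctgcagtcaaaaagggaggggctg

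The motif began 29 bases before the annotated start in Trim12c, 36 before it in Trim30a and 41 before it in Trim30d, and 10 bases after it in Trim12a and Trim34a. The Trim12a window was 95% identical to that of Trim12c over 260 aligned bases and 100% identical to that of Trim5 over 241. The windows of Trim30a and Trim30d were 93.6% identical over 295 bases. These letters are not in the Trim34b window, nor in that of Trim30b. The Trim30b window (chr7:104358597-104358896, minus) lies inside the gene as annotated in GENCODE M21 and not at its 5′ end. The sequence at that end was not searched. A match is a description of the reference sequence. The windows of SAMP8 and SAMR1 were not read, and binding was not measured.

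The 41 libraries held 28861 to 37931897 counts with a median of 3082694, and 8 were under 1000000. At these depths the cluster was near the limit of detection: over all libraries Trim12c had 835 counts, Trim30a 447, Trim12a 296, Trim34a 257, Trim30d 182 and Trim30b 18. Low counts were mostly even numbers (84.9% of all values from 1 to 10), so the intervals given here take each pair of counts as 1 molecule. They cover counting error only. The strain labels were checked with 13 genes outside the cluster that differed between the strains at 2.5 months. The measure was the share of their signal on the SAMP8 side, which is near 1 in SAMP8 and near 0 in SAMR1. It was over the middle in 3 SAMR1 cortex libraries of 9 months (0.811, 0.739 and 0.654) and in SAMR1 cortex replicate 2 of 6 months (0.894), and 0.113 to 0.181 in the 4 SAMP8 cortex libraries of 9 months. In the other libraries it was 0.550 to 1 in SAMP8 and 0.0815 to 0.223 in SAMR1. By limits of 0.2 and 0.8, 6 libraries went against their strain label and 1 (SAMR1 cortex replicate 3 of 6 months) against its region. All are used under their labels below. Tests of the members at 6 months are also given without them, whereas at 9 months only hippocampus is left when all 8 on the other side of 0.5 are left out. The microglia markers, 14 of 14 tested, had summed levels with medians of 492.8 to 578 counts per 1000000 (CPM) in the 6 groups of strain and age.

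At 2.5 months, of the 6 genes, the strains differed most at Trim12a, one of the mouse relatives of human TRIM5. This contrast chose the genes, so it is described without a test. Trim12a stood at 2.07, 0 and 3.89 CPM in SAMP8 cortex and at 2.43, 2.16 and 2.01 CPM in SAMP8 hippocampus. The library at 0 is the one of 28861 counts. In SAMR1 it was at 0 in all 4 hippocampus libraries and in 3 of 4 cortex libraries, and the remaining cortex library had 1 count (0.0541 CPM). Summed over libraries that is 2.40 CPM against 0.0125 CPM.

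Trim30d, the gene of a protein that restricts tick-borne flaviviruses, followed the same direction at 2.5 months. It was at 0.753, 0 and 1.95 CPM in SAMP8 cortex and 0.571, 2.16 and 5.02 CPM in SAMP8 hippocampus. SAMR1 cortex had 0, 0.162, 0.179 and 0 CPM, and SAMR1 hippocampus 0.249, 0.0775, 0 and 0 CPM. All SAMP8 libraries but the shallowest thus lay above every SAMR1 library. Trim34a, an interferon-induced relative of human TRIM34, was at 2.17 CPM in SAMP8 and 0.437 CPM in SAMR1 summed over libraries, with overlapping ranges of 0 to 3.23 and 0 to 3.99 CPM. Trim12c, whose protein works with TRAF6 in innate signaling, and Trim30a, which restrains signaling from toll-like receptors to NF-kB, were read in both strains, at 2.14 against 3.15 CPM and 1.65 against 1.35 CPM. Trim30b had no count in SAMP8 and 7 counts in SAMR1. Trim34b, no member of the set, had no count in any SAMP8 library and 43 counts in 5 of 8 SAMR1 libraries, which is 0.537 CPM. A count of 0 over the 6 SAMP8 libraries allows up to 0.112 CPM (3 counts). This bound takes counts singly and is higher where each pair of counts is 1 molecule. The fitted log2 fold changes were 6.34 for Trim12a, 3.58 for Trim30d, 1.81 for Trim34a, -0.58 for Trim12c, -0.01 for Trim30a and -2.21 for Trim30b. Past the limits used below were 2 of the 6 genes without a filter on low counts (0.598% of 39155 genes) and 1 of the 2 that pass it (0.229% of 14818), from which nothing is read here.

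**Figure D1:**
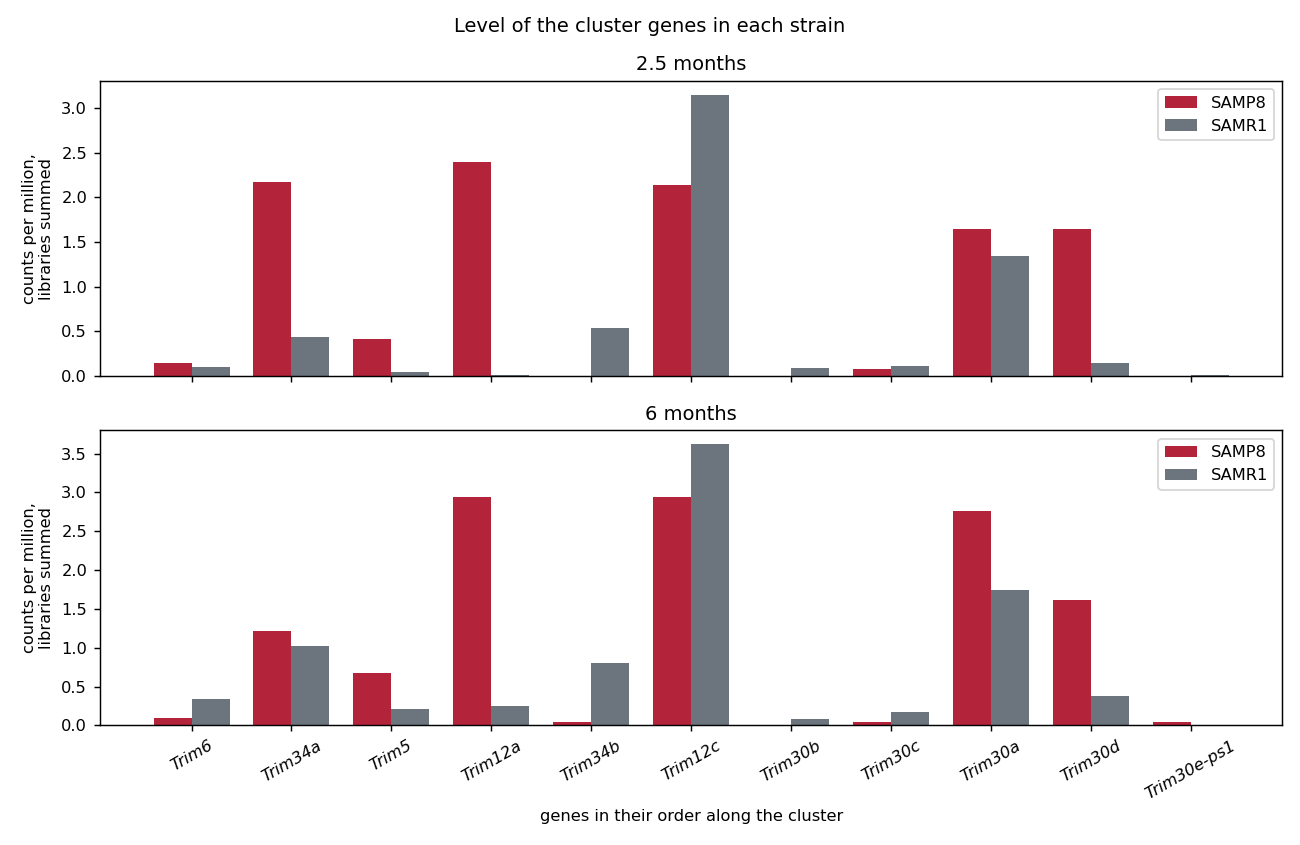
Level of the 11 cluster genes in their order along the chromosome at 2.5 months (upper panel) and 6 months (lower panel). Bars give counts per 1000000 with the libraries of a strain summed, red for SAMP8 and grey for SAMR1. Trim12a and Trim30d stand in SAMP8, Trim34b stands in SAMR1, and Trim12c and Trim30a stand in both. Trim5 is low in both strains and higher in SAMP8.

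Per kilobase of exon, the order of the genes also differed between the strains at 2.5 months. Trim34a led in SAMP8 (0.838 CPM per kb), followed by Trim12c (0.571), Trim30d (0.439), Trim12a (0.415), Trim30a (0.401) and Trim30b (0). In SAMR1 the order was Trim12c (0.841), Trim30a (0.328), Trim34a (0.169), Trim30d (0.0399), Trim30b (0.0116) and Trim12a (0.00216). Trim12c led again at 6 and 9 months in both strains, at 0.736 to 0.967 CPM per kb. These levels come from summed counts, in which the deepest libraries weigh most, and neighbours such as Trim30d, Trim12a and Trim30a in SAMP8, or Trim30a and Trim34a in SAMR1, lay closer than the spread over their libraries.

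At 6 months Trim12a again had higher values in SAMP8. It stood at 2.94, 2.79, 4.07 and 2.83 CPM in SAMP8 cortex and at 4.78, 0 and 0 CPM in SAMP8 hippocampus, whose libraries hold 217457 to 418346 counts. SAMR1 cortex had 0.346, 1.32 and 0 CPM, and all 4 SAMR1 hippocampus libraries were at 0. The SAMP8 cortex libraries lay above every SAMR1 library, whereas 2 shallow hippocampus libraries overlapped them. The SAMR1 library at 1.32 CPM is replicate 2 of the cortex, the one that goes against its strain label by the check genes. The mean was 2.49 ± 1.85 CPM in SAMP8 (SD, n = 7) and 0.238 ± 0.495 CPM in SAMR1 (SD, n = 7). Here n counts libraries, and the 7 of each strain come from 4 mice. Summed counts gave 2.94 against 0.255 CPM, a ratio of 11.5 (exact binomial 95% interval 3.77 to 57.4), and 2.94 against 0.0977 CPM without SAMR1 cortex replicate 2, which holds 4 of the 6 SAMR1 counts, with 97 of the 126 SAMP8 counts from 1 cortex library of 33042689 counts.

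Across all genes this difference lay on either side of the threshold, depending on the filter. A gene was called where edgeR's quasi-likelihood test, with a term for region, gave an adjusted p (Benjamini-Hochberg) no higher than 0.1 and a log2 fold change of 1 or more in either direction. SE stands here for the absolute log2 fold change divided by the square root of F, and is no standard error of the fit. With the filter on low counts the log2 fold change of Trim12a was 3.20 (SE 1.04, edgeR adjusted p = 0.163), and 0 of the 2 genes that pass it were called (1 at an unadjusted p under 0.05) beside 0.256% of all 14818. Trim12a passes this filter only through libraries where it is high. The edgeR tests take both regions of a mouse as separate samples, and limma voom with the mouse as a block gave 3.16 (adjusted p = 0.143) and also called 0. DESeq2 gave Trim12a a log2 fold change of 2.96 but no adjusted p. With no filter, which admits all 6 genes, it was 3.20 (SE 0.90, edgeR adjusted p = 0.0499), so that 1 of 6 was called beside 0.794% of 39155. Without SAMR1 cortex replicate 2 it was 4.63 (edgeR adjusted p = 0.0805) with the filter. That library holds most of the SAMR1 counts of Trim12a, so the higher value follows from leaving it out. The call without a filter was lost without SAMP8 cortex replicate 1 (edgeR adjusted p = 0.102), SAMR1 cortex replicate 3 (0.119) or SAMR1 hippocampus replicate 3 (0.152). In 48 alternative analyses the log2 fold change was above 0 in all 48, from 2.43 to 6.20, with adjusted p from 0.00548 to 0.495.

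Trim30d had the next largest positive value at 6 months but was not called. It was at 1.42, 2.32, 3.05 and 0.809 CPM in SAMP8 cortex and at 4.78, 5.37 and 0 CPM in SAMP8 hippocampus. SAMR1 cortex had 0.693, 1.65 and 0 CPM, and the 4 SAMR1 hippocampus libraries were at 0. The ranges overlapped, with 1.65 CPM in the SAMR1 library that goes against its label. Its log2 fold change was 2.35 (SE 0.90, edgeR without filter, adjusted p = 0.247). Without SAMR1 cortex replicate 2 it was 3.42 (adjusted p = 0.0791), past the limits, and 2 of 6 genes were then called. That library held the highest SAMR1 value of Trim12a and of Trim30d at 6 months, so these calls follow from leaving it out. With the other libraries past the limits of the strain check left out as well it was 3.42 (adjusted p = 0.105), and without all 8 on the other side of 0.5 it was 3.38 (adjusted p = 0.104), and it was not called in either.

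The other members did not pass at 6 months. Trim12c had values from 0 to 21.5 CPM with a median of 2.63 CPM in SAMP8 and from 0 to 5.63 CPM with a median of 3.09 CPM in SAMR1. The 21.5 CPM are 9 counts in a library of 418346. Its log2 fold change was 0.54 (SE 0.60, edgeR adjusted p = 0.779). Trim30a ranged from 0 to 4.64 CPM in SAMP8 and from 0 to 4.60 CPM in SAMR1, and its log2 fold change was 0.52 (SE 0.71, edgeR without filter, adjusted p = 0.946). Trim34a was at most 1.33 CPM in SAMP8 and 1.88 CPM in SAMR1, with a log2 fold change of -0.23 (SE 0.86). Trim30b was at 0 in SAMP8 and had 2 counts in 1 SAMR1 library. Over the 6 genes the median log2 fold change was 0.55, beside -0.03 over all genes.

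**Figure D2:**
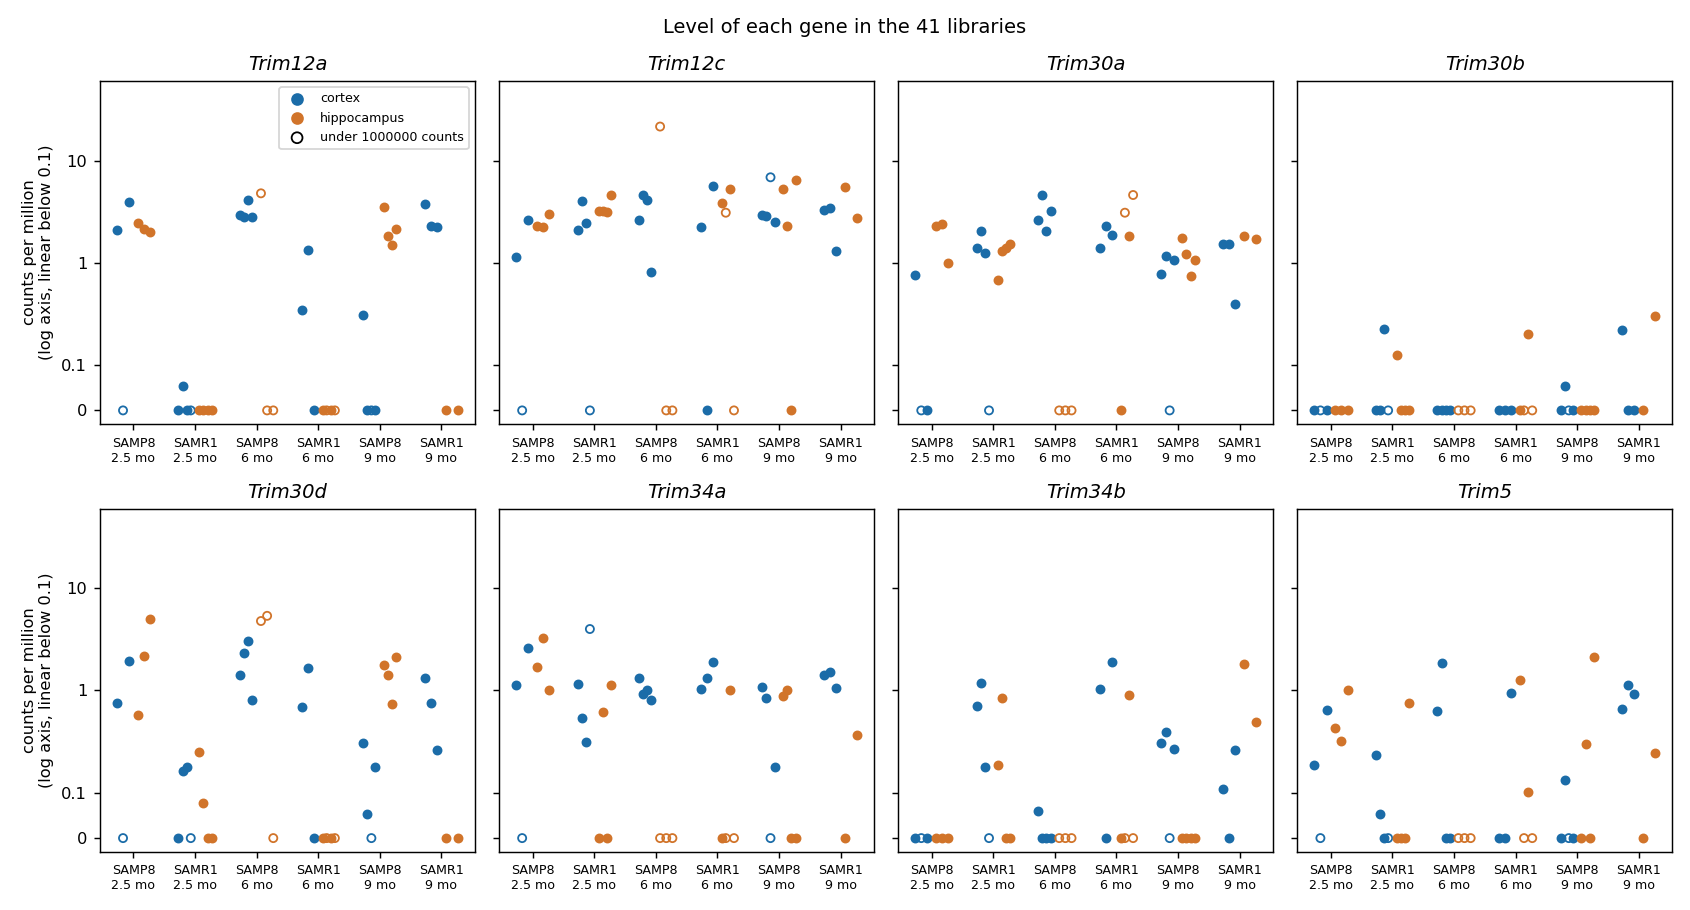
Level of the 6 genes and of Trim34b and Trim5 in each of the 41 libraries, by strain and age, in counts per 1000000 on a log axis that is linear below 0.1. Blue points are cortex, orange points hippocampus, and open points libraries under 1000000 counts. Trim12a is near 0 in SAMR1 at 2.5 months and at 9 months it is high in SAMR1 cortex and SAMP8 hippocampus, while the ranges of Trim12c and Trim30a overlap between the strains at each age.

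At 9 months, under the labels as given, Trim12a was higher in SAMR1 in cortex and higher in SAMP8 in hippocampus. The cortex values rest on 7 libraries whose check genes lie on the side of the other strain. SAMP8 mice 28, 33 and 34 gave both regions at that age. Their check shares were 0.130, 0.176 and 0.181 in cortex and 0.812, 0.824 and 0.718 in hippocampus. At 6 months SAMR1 mouse 2 likewise had 0.894 in cortex and 0.102 in hippocampus. Whether the labels of the 7 cortex libraries were exchanged was not tested, and no cortex library of 9 months is left without them. Under their labels, the SAMP8 cortex libraries had 0.310, 0, 0 and 0 CPM of Trim12a and the SAMR1 cortex libraries 3.72, 2.28 and 2.23 CPM, so that all of the libraries labelled SAMR1 lay above all of those labelled SAMP8. Summed, cortex had 63 counts against 2, or 2.86 against 0.0356 CPM, a ratio of 80.3 (exact binomial 95% interval 13.6 to 3320). In hippocampus SAMP8 had 3.52, 1.81, 1.49 and 2.14 CPM and both SAMR1 libraries were at 0. Summed, SAMP8 hippocampus had 2.02 CPM, and a count of 0 over the 2 SAMR1 libraries allows up to 0.171 CPM (3 counts). That bound, too, takes counts singly and is higher where each pair is 1 molecule. The difference in cortex minus that in hippocampus was -12.24 on the log2 scale (SE 1.90, edgeR adjusted p = 0.000448). That fitted size and its SE depend on the prior count, since SAMR1 hippocampus is at 0, and give no precision of the difference. Hence 1 of the 2 genes that pass the filter was called, beside 0.263% of 14818. Trim12a passes that filter only through libraries where it is high, a SAMP8 cortex library of 2.5 months among them. The count of 1 in 2 rests on that selection. In the fit without a filter the difference was -12.10 (SE 2.34, edgeR adjusted p = 0.000217).

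The cortex libraries of 9 months are the ones whose 13 check genes lie on the side of the other strain. In the 33 libraries of at least 1000000 counts Trim12a lay on the same side as the check genes, one by one. Of these, 17 had a check share over 0.5, and Trim12a was read in all 17, from 1.32 to 4.07 CPM. In the 16 with a lower share it was at 0 in 13 and reached 0.346 CPM in the others. Trim30d was at 0.262 to 5.02 CPM in the 17 and at 0 to 0.693 CPM in the 16. Trim34b went the other way, being read in 3 of the 17 (at most 0.262 CPM) and in 13 of the 16 (up to 1.88 CPM). Among these libraries, Trim12a went against the strain label in the cortex libraries of 9 months and in SAMR1 cortex replicate 2 of 6 months. The check genes were chosen on the 2.5-month libraries, as the 6 genes were, so only the libraries of 6 and 9 months are new to both.

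**Figure D3:**
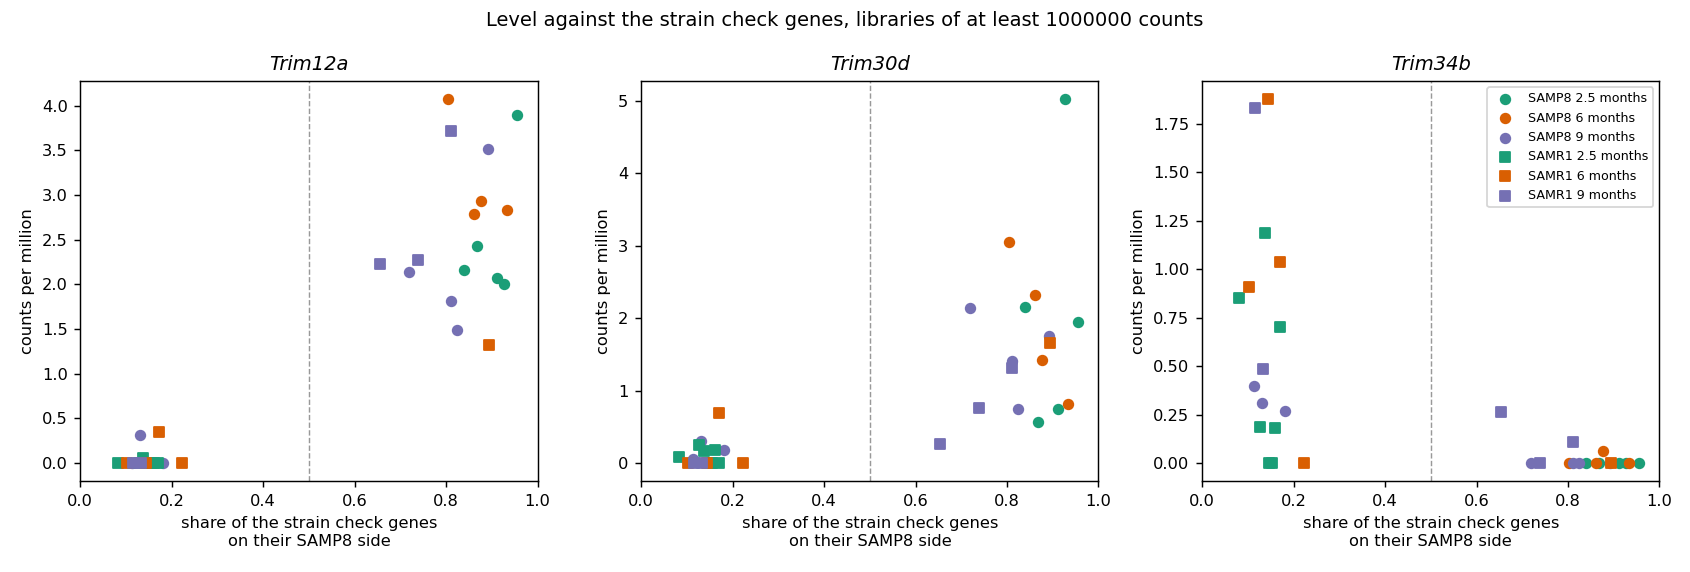
Level in counts per 1000000 of Trim12a, Trim30d and Trim34b against the share of the strain check genes on their SAMP8 side, in the libraries of at least 1000000 counts. Circles are labelled SAMP8 and squares SAMR1, colors give the age, and the dashed line is at 0.5. The right of the line holds 3 squares of 9 months and 1 of 6 months, and the left holds 3 circles of 9 months, and Trim12a is at or near 0 on the left alone.

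Trim30d had a like pattern at 9 months. Labelled SAMP8 cortex libraries were at 0.310, 0.0527, 0 and 0.179 CPM and labelled SAMR1 cortex libraries at 1.31, 0.759 and 0.262 CPM, with overlap at the edge. In hippocampus SAMP8 stood at 1.76, 1.41, 0.743 and 2.14 CPM and SAMR1 at 0 in both. The difference between the regions was -8.52 on the log2 scale (SE 2.45, edgeR without filter, adjusted p = 0.0940), so that 2 of 6 genes were called without a filter, beside 0.552% of 39155. For Trim5, outside the set, it was -4.78 (SE 2.21, edgeR without filter, adjusted p = 0.625), and Trim5 was not called. Within cortex alone the strain difference of Trim12a was -5.37 (SE 1.16, edgeR without filter, adjusted p = 0.00418) and within hippocampus alone 6.48 (SE 2.07, adjusted p = 0.263).

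With both regions together the members were not called at 9 months. Trim12a had a log2 fold change of -0.60 (SE 0.98, edgeR adjusted p = 1.00) with the filter, and 0 of 2 genes were called beside 0% of all 14818, where 0 genes passed and 367 had an unadjusted p under 0.05. Of the 2, 0 had an unadjusted p under 0.05, and DESeq2 and limma voom called 0 of them. Without a filter 0 of 6 were called (0 at an unadjusted p under 0.05) beside 0.148% of 39155. Without the libraries past the limits of the strain check the log2 fold change of Trim12a was 2.21 (edgeR adjusted p = 0.694). Without all 8 libraries on the other side of 0.5, which leaves hippocampus only at 9 months (4 SAMP8 and 2 SAMR1 libraries), it was 6.75 (adjusted p = 0.0381) with the filter and 6.71 (SE 1.96, adjusted p = 0.157) without it. The libraries left out are those in which Trim12a, too, lay on the side of the other strain. The higher values thus follow from the choice of libraries and are a description. Trim12c stayed between 1.31 and 5.51 CPM in SAMR1 and between 0 and 6.86 CPM in SAMP8, with a log2 fold change of 0.11 (SE 0.57). Trim30a was at 1.11 against 1.39 CPM, Trim34a at 0.726 against 0.884 CPM and Trim30b at 0.0274 against 0.177 CPM, summed over the libraries of SAMP8 and SAMR1.

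**Figure D4:**
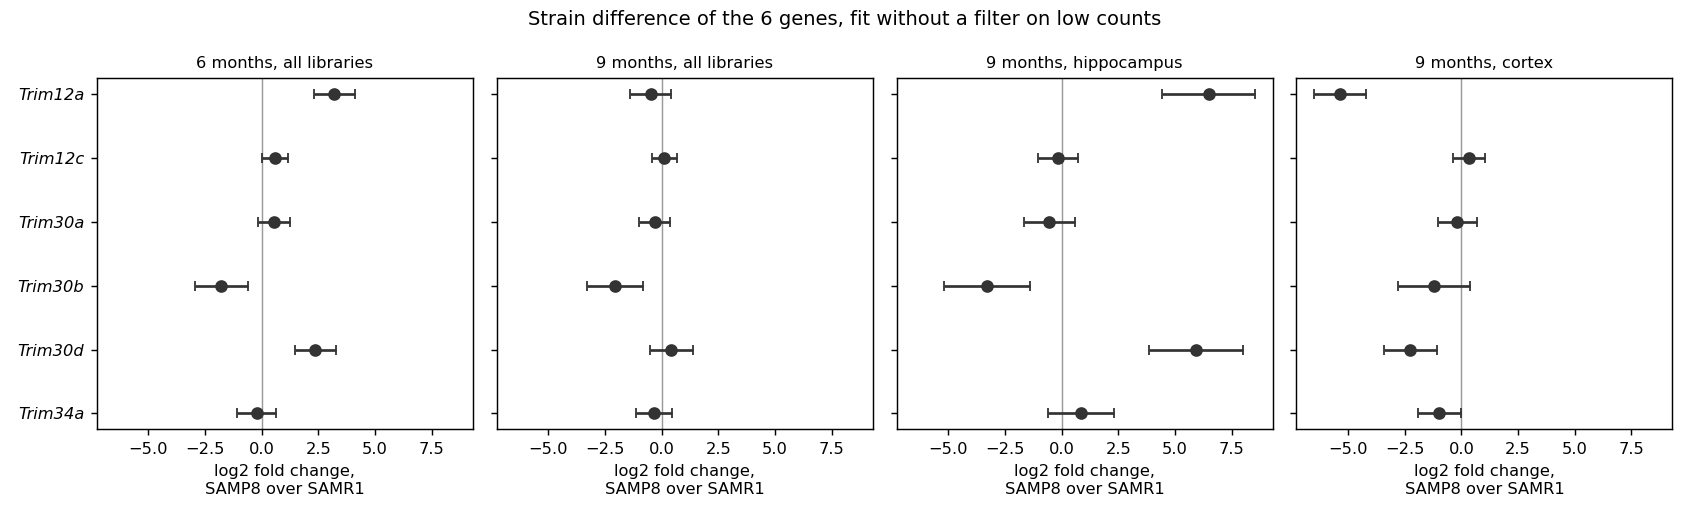
Fitted log2 fold change of SAMP8 over SAMR1 (points) for the 6 genes in the edgeR fit without a filter on low counts. Panels give 6 months and 9 months over both regions, then hippocampus and cortex alone at 9 months. Bars give the SE, the absolute log2 fold change divided by the square root of F. Trim12a is at 3.20 at 6 months, -0.48 at 9 months, 6.48 in hippocampus and -5.37 in cortex, and Trim30d has the same sign in each case but 9 months over both regions, where it is at 0.43.

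At 6 months no member was called for a difference between the regions in the strain effect, 0 of 2 with the filter (0 at an unadjusted p under 0.05) beside 0.0337% of 14818 and 0 of 6 without it (1 at an unadjusted p under 0.05, Trim30d) beside 0.503% of 39155. All 3 SAMP8 hippocampus libraries of that age are under 1000000 counts. Between hippocampus and cortex, over both strains and all ages, no member was called either: 0 of 2 with the filter (0 at an unadjusted p under 0.05) beside 3.97% of 14818, and 0 of 6 without it (0 at an unadjusted p under 0.05) beside 4.54% of 39155. DESeq2 called 0 for the region and 0 for the interaction at 6 months. The region differences, hippocampus over cortex, were 0.47 for Trim12c (SE 0.34, edgeR adjusted p = 0.418), -0.24 for Trim12a (SE 0.64), -0.91 for Trim34a (SE 0.51, without filter), 0.10 for Trim30a (SE 0.42), 0.26 for Trim30d (SE 0.58) and 0.25 for Trim30b (SE 1.06). Without the 7 libraries whose strain or region check genes go against their label, Trim12a was lower in hippocampus, with a log2 difference of -1.66 (edgeR adjusted p = 0.0535, with the filter), and 1 of 2 genes was called. SAMR1 cortex replicates 2 and 3 of 9 months, whose share is over 0.5, remain in that fit. Without them too the difference was -0.91 (edgeR adjusted p = 0.338), and no member was called.

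Because near copies may share reads, the counts of Trim12a and Trim12c were also summed, as were those of Trim30a, Trim30b and Trim30d. Trim5, with which Trim12a and Trim12c share the most stretches, was left out, and Trim34a was not summed with Trim34b. Trim12a plus Trim12c was at 7.30 ± 8.99 CPM in SAMP8 (SD, n = 7) and 3.10 ± 2.02 CPM in SAMR1 (SD, n = 7) at 6 months, and at 4.80 ± 2.86 CPM (SD, n = 8) and 4.89 ± 1.73 CPM (SD, n = 5) at 9 months. With values centred and labels permuted within each region, the mean difference of log2(CPM + 0.5) was 0.26 at 6 months (two-sided exact permutation test, p = 0.794, smallest possible 0.000816) and -0.16 at 9 months (two-sided exact permutation test, p = 0.716, smallest possible 0.00190). Neither sum differed beyond the spread between libraries. Trim30a, Trim30b and Trim30d together were at 4.32 ± 2.15 CPM in SAMP8 (SD, n = 7) and 2.52 ± 1.53 CPM in SAMR1 (SD, n = 7) at 6 months, a mean difference of 0.50 (two-sided exact permutation test, p = 0.426). At 9 months they were at 1.80 ± 1.20 CPM (SD, n = 8) and 1.97 ± 0.871 CPM (SD, n = 5), a mean difference of -0.32 (two-sided exact permutation test, p = 0.507). Without the libraries under 1000000 counts, which leaves the 7 cortex libraries at 6 months, the Trim30 sum gave 0.84 (two-sided exact permutation test, p = 0.0286, the smallest that 35 permutations allow), and without SAMP8 hippocampus replicate 3, which has no count of these genes, 1.00 (p = 0.0324, exact permutation test). On the 7 cortex libraries left at 6 months, the sum of Trim12a and Trim12c gave 0.98 (two-sided exact permutation test, p = 0.143). In these tests the libraries of both regions of a mouse count as separate samples.

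The balance within each pair does not depend on the total of a library. At 2.5 months Trim12a made up 52.9% of the reads of Trim12a and Trim12c together in SAMP8 and 0.395% in SAMR1, in the libraries that chose the genes. At 6 months it was 50% (95% Wilson interval 41.4% to 58.6%) and 6.59% (2.24% to 17.5%), and 2.30% in SAMR1 without cortex replicate 2. At 9 months the labelled cortex libraries had 1.24% in SAMP8 (0.218% to 6.67%) and 52.1% in SAMR1 (40.2% to 64.5%), whereas hippocampus had 42.0% in SAMP8 (27.8% to 56.6%) and 0% in SAMR1 (0% to 12.9%). In the groups where Trim12a was high, its reads thus came close in number to those of Trim12c. Trim30d made up 50% of the reads of Trim30a and Trim30d in SAMP8 at 2.5 months and 10% in SAMR1, 36.9% against 18% at 6 months (10.5% without SAMR1 cortex replicate 2) and 27.0% against 24.7% at 9 months. By region at 9 months it was 8.96% in SAMP8 and 41.9% in SAMR1 in cortex, and 54.5% and 0% in hippocampus. Trim34b, for its part, made up 0% of the reads of Trim34a and Trim34b in SAMP8 at 2.5 months and 55.1% in SAMR1, 3.70% against 44.2% at 6 months and 27.4% against 27.1% at 9 months. By region at 9 months it was 32.8% in SAMP8 and 9.38% in SAMR1 in cortex, and 0% and 62.5% in hippocampus.

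The genes with which the cluster is linked in function showed no strain difference that passed. Of the 65 interferon-stimulated genes listed, 39 were tested, and 0 passed an adjusted p of 0.1 at 6 months (2 at an unadjusted p under 0.05), with 30 of 39 above 0 and a median log2 fold change of 0.26 beside -0.04 over all genes. Among them were Gbp3, a guanylate-binding protein of cell-autonomous defense, at 1.39 (SE 0.53, edgeR adjusted p = 0.241) and Ifit3, an interferon-induced antiviral protein, at 0.84 (SE 0.45). At 9 months 0 of 39 passed (2 at an unadjusted p under 0.05), 29 of 39 were below 0 and the median was -0.12, with Ifit3 at -1.02 (SE 0.42) and Bst2, the tetherin that holds budding virus at the cell surface, at -1.45 (SE 0.78). The summed level of the list had a median of 540 CPM in SAMP8 and 463 CPM in SAMR1 at 6 months, where the microglia markers stood at 578 and 497 CPM. Without the 8 libraries on the other side of 0.5 the median of the list was 0.15 at 6 months (29 of 39 above 0) and 0.07 at 9 months (23 of 39 above 0). Of 14 markers of border macrophages and blood leukocytes 3 were tested, and all 3 lay above 0 at 6 months, with a median log2 fold change of 1.21 and 1 at an unadjusted p under 0.05 (Lyve1, 1.71, SE 0.75, edgeR adjusted p = 0.322). Their list had a summed median of 21.9 CPM in SAMP8 and 9.78 CPM in SAMR1 at that age, with ranges of 0 to 42.99 and 0 to 17.8 CPM. At 9 months the 3 were below 0 (median -0.28), with medians of 9.09 and 9.04 CPM. Without the same 8 libraries their median was 0.77 at 6 months and 0.41 at 9 months. Markers of choroid plexus lay below 0 at 6 months in 8 of 8 (median log2 fold change -1.09) and above 0 at 9 months in 8 of 8 (1.41), of which 0 had an unadjusted p under 0.05 in edgeR at either age. Without the 8 libraries these medians were -1.35 and 3.77. Hippocampus markers lay below 0 in 8 of 11 at 6 months (median -0.54) and above 0 in 10 of 11 at 9 months (0.50). Cortex markers had medians of 0.10 and -0.15. Without the 8 libraries 2 of 9 cortex markers passed an adjusted p of 0.1 at 9 months (median -0.78). Microglia markers lay above 0 in 10 of 14 at 6 months (median 0.18) and in 9 of 14 at 9 months (0.05), and 0 passed. The part of these cells in the values of the cluster and of the interferon-stimulated genes was not tested, and in bulk RNA fewer cells of a type and less RNA per cell cannot be told apart.

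Of 27 genes of toll-like receptor and NF-kB signaling, the path that Trim30a restrains, 25 were tested and 0 passed at 6 months (1 at an unadjusted p under 0.05) and at 9 months (0). Their medians were -0.14 and 0.09. Tlr4, the receptor for bacterial lipopolysaccharide, was at 1.35 (SE 0.61, edgeR adjusted p = 0.340), and Tab2, the adaptor that Trim30a removes, at -0.40 (SE 0.20, edgeR adjusted p = 0.423) at 6 months. Of 15 genes that restrict retroelements and foreign nucleic acid 12 were tested, and 0 passed at either age (0 at an unadjusted p under 0.05), with Mov10, an RNA helicase that restricts retrotransposons, at -0.93 (SE 0.55) and Fv1, which blocks murine leukemia virus, at 0.64 (SE 0.40) at 6 months. Of 32 Trim genes outside the cluster 30 were tested and 0 passed at 6 months (6 at an unadjusted p under 0.05) or 9 months (0). Trim36 was at 0.94 (SE 0.33, edgeR adjusted p = 0.199) at 6 months and Trim21, the intracellular antibody receptor, at -0.93 (SE 0.54) at 9 months. Between the regions, 1 interferon-stimulated gene was higher and 3 were lower in hippocampus at an adjusted p of 0.1, and 2 of the 39 were past the fold limit too, beside 3.97% of 14818. Among the lower was Herc6, an interferon-induced ubiquitin ligase, at -1.24 (SE 0.20, edgeR adjusted p = 1.29e-05).

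Within the cluster, the levels of Trim12a and Trim30d ran together over the 33 libraries of at least 1000000 counts, with a Spearman correlation of 0.84. Trim12a stood at -0.56 with Trim34b, -0.12 with Trim12c, 0.24 with Trim30a and 0.45 with Trim34a. Over all 14817 other genes tested, those most like Trim12a included Gm21955 (0.90), Gm6356 (0.88), Gm14326 (0.87) and Mrpl14 (0.87), a subunit of the mitochondrial ribosome, where the median gene was at 0.00 and the highest 1% above 0.61. Gm14326 is one of the 13 strain check genes. For Trim30a the highest values were lower, Mybpc1 (0.59), Edn3 (0.58), Cd99l2 (0.58), Trmt2b (0.58) and Aifm2 (0.57), with the highest 1% above 0.40. Of the 33 libraries 12 are those of 2.5 months that chose Trim12a and the check genes. All genes share the strain and depth of each library, so the correlations are a description.

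The cluster lies among olfactory receptor genes and the beta-globin locus. Within 500 kb the table has 90 genes, 41 of them with any count. The highest were the globin genes Hbb-bs (17311 counts) and Hbb-bt (3400), and of the others Gm5900 (302) and Gm4887 (187) had the most. The erythrocyte markers that contain the globins had medians of 97.2 CPM in cortex and 96.0 CPM in hippocampus.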

How the data were processed

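Total RNA-seq libraries with molecular identifiers were analysed from the deposited table of raw counts per gene. Per the labels and methods, the authors trimmed reads with cutadapt, aligned them with STAR, removed duplicates by molecular identifier and counted them on the forward strand with featureCounts. The methods name GENCODE M29 with GRCm38, and the labels list GRCm38 and GRCh38.p13. Coordinates were taken from GENCODE M21 on GRCm38, which matched 94.1% of gene IDs. The members and gene lists were chosen with earlier results of these data known.

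Strains were compared at each age with edgeR 4.0.16 (TMM, quasi-likelihood F test, region as covariate, R 4.3.3), and the difference between regions was taken from a model of all 12 groups of strain, age and region. Genes passed edgeR's filterByExpr (14818 genes) or, in the fit without a filter, had any count (39155 genes). Trim12a passed filterByExpr only through libraries where it is high, so counts among the members that pass rest on that selection. Genes were called at an adjusted p of 0.1 and an absolute log2 fold change of 1. The SE was derived from the test, as the absolute log2 fold change divided by the square root of F. The genes named were the 6 members, the other cluster genes, neighbours within 500 kb, the 5 most like Trim12a and Trim30a by Spearman correlation of log2(CPM + 0.5) (1 of these is not reported here), and for each list at most 4 genes, those of lowest p. DESeq2 1.42.0, limma 3.58.1, a replicate block, left-out libraries, other filters and another pseudocount were alternatives. Fits were tested on simulated data. CPM is counts over the library total. Libraries of 1 strain, age and region are separate mice, whereas groups of strain and age hold both regions of some mice.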

Additional observations from a re-analysis of the deposited data

Results flagged for a closer look

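The strain difference of Trim12a differed between the regions at 9 months, under the labels as given, by -12.24 on the log2 scale for cortex minus hippocampus (edgeR adjusted p = 0.000448), and that of Trim30d by -8.52 (edgeR without filter, adjusted p = 0.0940). The cortex libraries behind both values are the ones whose strain check genes lie on the side of the other strain, and whether their labels were exchanged was not tested.

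In 10 of 31 combinations of a gene and a group of 4 libraries, 1 library stood apart from the others by Dixon's test. Chance gives about 1 in 20 groups for measured values that vary, which does not hold for the 7 of the 10 in groups otherwise at 0, where any count stands apart. Trim12a had 1 count (0.0541 CPM) in SAMR1 cortex replicate 2 of 2.5 months and 2 counts (0.310 CPM) in SAMP8 cortex replicate 1 of 9 months. Trim30b had 2 counts (0.0527 CPM) in SAMP8 cortex replicate 2 of 9 months, 5 counts (0.224 CPM) in SAMR1 cortex replicate 3 and 2 counts (0.124 CPM) in SAMR1 hippocampus replicate 1 of 2.5 months. In SAMR1 hippocampus replicate 3 of 6 months Trim30b had 2 counts (0.202 CPM) and Trim34a 10 counts (1.01 CPM), with the other 3 libraries at 0 for both. Trim12a reached 4.07 CPM in SAMP8 cortex replicate 3 of 6 months, above the next library at 2.94 CPM. Trim12c reached 6.86 CPM in SAMP8 cortex replicate 3 of 9 months, which is 4 counts in a library of 583076, and 4.56 CPM in SAMR1 hippocampus replicate 4 of 2.5 months, where the next library had 3.24 CPM.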

How the results depend on the processing

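Of 169 alternative values of the main counts and sums, 131 kept their direction and their side of the threshold. At 6 months 1 member was called in place of 0 without a filter on low counts, with or without the replicate block, and without the libraries whose strain check genes oppose their label or lie past 0.5, with or without the filter, and also without shallow libraries in the fit with no filter. Leaving out 1 library gave 0 to 2. The omission of libraries past 0.5, and each library choice combined with no filter, were chosen after seeing the data. Leaving out libraries by the strain check removes those in which Trim12a opposes its label, so higher values and calls of Trim12a then follow from that choice. At 9 months 1 was called in cortex alone, with or without the filter, and with the filter without the libraries past 0.5 (with or without the region-opposed one), whereas leaving out 1 library gave 0. Between the regions 1 was called without the libraries whose strain or region check genes oppose their label (Trim12a) and 0 when those past 0.5 were left out too, and for the difference between regions at 9 months 2 were called without a filter. 

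Trim12a at 9 months turned positive in hippocampus alone (6.49, without filter 6.48), without the strain-opposed libraries (2.21 and 2.22), without the strain-opposed or region-opposed ones (2.24) and without those past 0.5 (6.75 and 6.71, and 6.78 without the region-opposed one too), and leaving out 1 library gave -1.26 to 0.0331. Trim12c at 9 months turned negative in limma voom (-0.0712), in hippocampus alone (-0.16 with or without filter), and without the same sets of libraries (-0.0835, -0.0954, -0.15, -0.17 and -0.18), and leaving out 1 library gave -0.0680 to 0.30. At 6 months leaving out 1 library gave Trim12c -0.0530 to 0.88 (without filter from -0.0189). Without a filter Trim30a was at -6.20 in hippocampus alone at 6 months, Trim34a at 9 months was at 0.28, 0.86 and 0.87 without strain-opposed libraries, without those past 0.5 and in hippocampus alone, and Trim30d was at -2.26 in cortex alone at 9 months.

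The sum of Trim12a and Trim12c moved to -0.00912 at 6 months and 0.258 at 9 months without the strain-opposed libraries or those past 0.5. When 1 library was left out it ranged from -0.457 to 0.729 and from -0.370 to 0.0121. Without shallow libraries it was 0.983 at 6 months (exact permutation p = 0.143) and -0.279 at 9 months (exact permutation p = 0.517). The Trim30 sum gave 0.844 at 6 months without shallow libraries (exact permutation p = 0.0286) and 0.356 at 9 months without strain-opposed libraries or those past 0.5, with ranges of 0.205 to 1.00 and -0.487 to -0.0468. The causes were not tested.

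Same-numbered samples shared only a number: the median correlation of their deviations was 0.0284 over 17 pairs, with 2 over 0.1. With the replicate block 0 members were called at 6 and 9 months (Trim12a at 6 months 3.26, edgeR adjusted p = 0.163), and 1 without a filter at 6 months (3.25, edgeR adjusted p = 0.0437). Depth limits the low genes most: 8 libraries hold under 1000000 counts, and 4 of the 6 members did not pass the filter.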
